A study of Rattus norvegicus with 46 samples.

Results

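The genes described are 7 that encode microtubule subunits or proteins that bind them: the β-tubulins Tubb6, Tubb5 and Tubb2b, the α-tubulin Tuba1a, and the microtubule-associated Dclk1, Tppp3 and Map1b. They are 7 of the 14317 genes that the array's annotation names with 1 symbol per probe set, and of the 9289 kept after the filter on low values, which all 7 passed. Each has 1 such probe set, so no choice between probe sets was needed. The set was chosen by gene name and partly selected on the higher array values of Tubb6 and Dclk1 at longer durations, so the members' levels across duration windows are given as a description without a test. Comparisons between legs did not enter the choice and were tested.

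RNA came from the proximal gastrocnemius of 23 female Sprague-Dawley rats in a model of intensive care, with 1 expression array for each leg and 46 in all. Every rat was anaesthetised with isoflurane, ventilated, and given α-cobrotoxin (100 µg at first, then 250 µg per day), which paralyses muscle by blocking its acetylcholine receptor. The left leg was loaded passively: a lever flexed and extended the ankle 13.3 times per minute for 12 h per day, or for 6 h at the shortest duration. The opposite leg was not moved. The labels pool durations into 3 windows, 6 h to 4 d (13 rats), 5 to 8 d (4 rats) and 9 to 14 d (6 rats), written below as 6h-4d, 5-8d and 9-14d. Age is not given in the sources used here, and no untreated rats were analysed here, so the earliest window already carries anaesthesia, ventilation and paralysis. Rats are named by the number of the unloaded leg. The 2 legs of a rat were matched from consecutive leg numbers.

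Microtubules are hollow polymers of α- and β-tubulin dimers. In a mature muscle fibre they form a grid under the membrane and a cage around the nuclei, nucleated at the nuclear envelope and at Golgi elements rather than at a centrosome, and they carry organelles and RNA and resist compression during contraction. The isotypes differ between tissues, and in fusing myoblasts and regenerating fibres the network is remodelled into long parallel arrays. Tubb6 is an isotype raised in dystrophic and regenerating muscle, where it is linked to a disordered grid. Dclk1 is a kinase with doublecortin domains that bind the microtubule lattice, Tppp3 is a small protein of the family that bundles microtubules and is known from cells of the tendon sheath, and Map1b is a structural protein best known from growing axons.

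The arrays' values are log2 expression, normalised together, with array medians between 6.07 and 6.20. A difference of 1 on this scale is a doubling. The muscle markers Ckm, a creatine kinase, and Acta1, skeletal actin, had mean log2 values of 13.93 and 14.23 in unloaded legs of 6h-4d, near the top of the scale. Groups whose mean lies under 6.07, the smallest of the array medians, may hold background only. For them a log2 difference is given without a fold, and its size is uncertain. Probe sets differ in brightness, so levels are compared between samples and not between genes. Sequences of Tuba1a, Tuba1b and Tuba1c, and of Tubb2a and Tubb2b, are nearly identical, and signal may be shared between these probe sets. A muscle sample mixes cell types, and fewer cells of a type and less RNA per cell cannot be told apart.

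RefSeq sequence upstream of the gene's start (build GRCr8) was matched for 6 of the 7 members, all but Tppp3. The 250 bases before the start are shown for 1 gene of each role, the tubulin Tuba1a at chr7:131995820-131996069 on the minus strand and the kinase Dclk1 at chr2:141782634-141782883 on the plus strand, since both were higher at later windows in both legs. Capitals mark matches, on either strand, to 4 motifs chosen after the values were seen: CAGCTG, an E-box bound by myogenic factors, CCAAT, the box bound by NF-Y, GGGCGG, the GC box bound by Sp factors, and TGANTCA, the AP-1 site.
Tuba1a: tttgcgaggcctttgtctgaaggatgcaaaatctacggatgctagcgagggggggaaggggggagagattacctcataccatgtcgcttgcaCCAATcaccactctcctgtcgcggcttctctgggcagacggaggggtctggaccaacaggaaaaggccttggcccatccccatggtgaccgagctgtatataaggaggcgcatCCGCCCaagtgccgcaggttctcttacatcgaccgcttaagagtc
Dclk1: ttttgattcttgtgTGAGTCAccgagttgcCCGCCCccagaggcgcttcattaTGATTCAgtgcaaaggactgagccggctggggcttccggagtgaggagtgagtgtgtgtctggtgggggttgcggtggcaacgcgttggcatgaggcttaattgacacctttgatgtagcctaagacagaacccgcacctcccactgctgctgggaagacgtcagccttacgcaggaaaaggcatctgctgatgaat
Tuba1a held 1 CCAAT and 1 GGGCGG. In Dclk1 there were 1 GGGCGG and 2 TGANTCA. The NF-Y box CCAAT was found in all 4 tubulins and in neither Dclk1 nor Map1b, and 34% of the 33469 rat promoters of this length held it. GGGCGG, held by 30.5% of promoters, occurred in Tubb6 (3 matches), Tubb5 (3), Tuba1a and Dclk1. Only Tubb6 held CAGCTG (1 match, against 12% of promoters), and only Dclk1 held TGANTCA (against 6.34%). One more motif, TGACGTCA, the CRE bound by CREB and held by 1.59% of promoters, matched none of the 6. The matches overlapped no other motif searched. These are letter matches in 1 annotated start per gene, not sites, and binding was not measured.

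Across windows, 4 of the 7 members in unloaded legs had every value of 9-14d above every value of 6h-4d (Tubb6, Tubb5, Tuba1a and Dclk1), and 3 did at 5-8d (Tubb6, Tubb5 and Tuba1a). Over all genes, 7.35% and 5.87% did. In loaded legs the members were 2 at 9-14d (Tuba1a and Dclk1) and 4 at 5-8d (Tubb6, Tubb5, Tuba1a and Dclk1), against 5.29% and 6.50% of all genes. The 4 were picked with this pattern partly known, and nothing is read from these shares. The median log2 difference over all genes lay between 0.05 and 0.08 in these 4 comparisons. Tppp3 and Map1b had lower means at 9-14d than at 6h-4d in both legs.

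**Figure D1:**
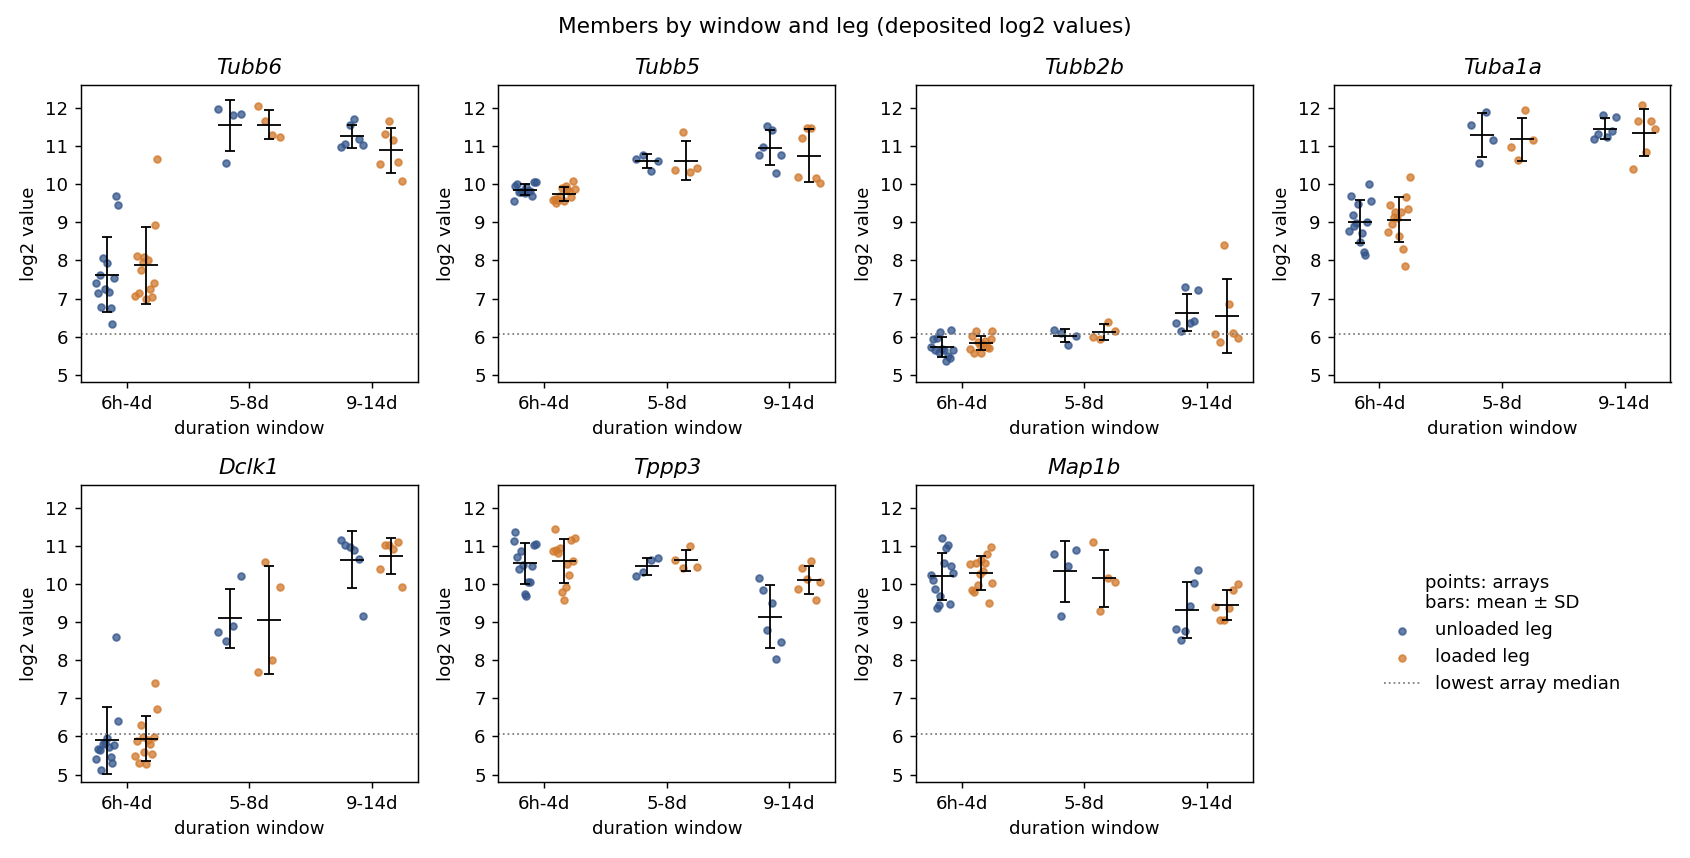
Log2 values of the 7 genes (vertical axis) by duration window (horizontal axis), with 1 point per array, unloaded legs in blue and loaded legs in orange, bars for mean ± SD and a dotted line at the lowest array median of 6.07. Tubb6, Tuba1a and Dclk1 step up after the first window in both legs, whereas Tppp3 and Map1b are lowest at 9-14d.

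Among the tubulins, Tubb6 showed the largest step. In unloaded legs of 6h-4d its log2 value ran from 6.34 to 9.70 with a median of 7.40. At 5-8d the 4 rats had 11.98 (rat 41), 10.55 (rat 43), 11.81 (rat 53) and 11.85 (rat 55). At 9-14d the values ran from 10.97 to 11.71 with a median of 11.12. All 10 later rats lay above all 13 early ones, with gaps of 0.85 at 5-8d and 1.27 at 9-14d. The mean was 7.63 ± 0.99 (SD, n = 13) at 6h-4d, 11.55 ± 0.67 (n = 4) at 5-8d and 11.25 ± 0.31 (n = 6) at 9-14d, which is 15.1-fold and 12.3-fold above the first window. The last 2 windows did not differ beyond their spread, by -0.30 (SE 0.49).

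The early rats were not uniform. Rats 35 and 37 had Tubb6 at 9.70 and 9.44 in the unloaded leg, while the other 11 lay between 6.34 and 8.07. Rat 35 also had the highest unloaded Tuba1a (10.01), Dclk1 (8.62), Tubb5 (10.06) and Tubb2b (6.18) of its window. In the loaded leg rat 37 had the highest Tubb6 (10.65) and Tuba1a (10.18), and rat 35 the highest Dclk1 (7.41). Exact durations within the window were not used here. Without both rats the early mean of Tubb6 was 7.28 ± 0.52 (SD, n = 11) in unloaded legs and 7.53 ± 0.46 in loaded legs.

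Loaded legs gave Tubb6 values from 6.98 to 10.65 (median 7.74) at 6h-4d. At 5-8d they were 12.05 (rat 41), 11.66 (rat 43), 11.28 (rat 53) and 11.24 (rat 55), and at 9-14d they ran from 10.07 to 11.66 (median 10.87). All loaded legs of 5-8d lay above all of 6h-4d. At 9-14d the groups overlapped through rat 37 alone, whose 10.65 exceeded 3 of the 6 later legs. The means were 3.67 (SE 0.45) and 3.01 (SE 0.39) above the first window.

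Tuba1a, an α-tubulin of developing tissue, followed the same steps at a smaller size. Its unloaded values ran from 8.14 to 10.01 (median 8.97) at 6h-4d, were 11.54, 10.55, 11.90 and 11.15 in rats 41, 43, 53 and 55, and ran from 11.17 to 11.82 (median 11.35) at 9-14d. In loaded legs they ran from 7.86 to 10.18 (median 9.15), were 10.97, 10.63, 11.94 and 11.15 in the same 4 rats, and ran from 10.40 to 12.07 (median 11.55) at 9-14d. No later leg of either side reached down into the early range. The means of 9-14d were 2.44 (SE 0.24) above 6h-4d in unloaded legs, or 5.43-fold, and 2.27 (SE 0.27), or 4.83-fold, in loaded legs. From 5-8d to 9-14d the difference was 0.17 in each leg, under its SE of 0.31 and 0.36.

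Tubb5, a β-tubulin of most cells, had the tightest early group. Unloaded legs of 6h-4d lay between 9.56 and 10.06 (median 9.82, SD 0.14), those of 5-8d at 10.67, 10.77, 10.35 and 10.60 (rats 41, 43, 53 and 55), and those of 9-14d between 10.30 and 11.52 (median 10.87). The later groups cleared the early one by only 0.24 to 0.29. The means were higher by 0.75 (SE 0.15) at 5-8d and 1.11 (SE 0.13) at 9-14d, or 1.68-fold and 2.15-fold. Loaded legs lay between 9.51 and 10.07 early, at 10.38, 11.37, 10.31 and 10.41 at 5-8d, and between 10.02 and 11.46 at 9-14d, where rat 59 at 10.02 fell just inside the early range.

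Tubb2b, a neuronal and developmental β-tubulin, stayed near background. In unloaded legs 11 of 13 values of 6h-4d lay below 6.07, with a range from 5.37 to 6.18 (median 5.66). At 5-8d the values were 6.18, 6.10, 5.79 and 6.03, and at 9-14d they ran from 6.16 to 7.30 (median 6.39). The last group overlapped the early one by 0.02. The 9-14d mean was 0.90 (SE 0.15) above the early mean. Loaded legs ran from 5.56 to 6.16 (median 5.80) at 6h-4d, were 5.99, 5.93, 6.39 and 6.16 at 5-8d, and ran from 5.87 to 8.40 (median 6.09) at 9-14d, with rat 49 alone at 8.40. There the difference was 0.71 (SE 0.24) with rat 49 and 0.34 without that rat.

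Among the associated proteins, Dclk1 had the largest difference of the 7. In unloaded legs of 6h-4d it ran from 5.13 to 8.62 (median 5.72), with 11 of 13 values below 6.07. At 5-8d it was 8.75 (rat 41), 8.51 (rat 43), 8.90 (rat 53) and 10.21 (rat 55), and at 9-14d it ran from 9.15 to 11.15 (median 10.92). Apart from rat 35 at 8.62, every early leg lay at or below 6.41, so the early group was close to background and the later ones were far above it. The mean difference was 3.19 (SE 0.44) at 5-8d and 4.73 (SE 0.38) at 9-14d.

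Dclk1 in loaded legs ran from 5.28 to 7.41 (median 5.88) at 6h-4d, with 10 of 13 values below 6.07. It was 7.69 (rat 41), 10.57 (rat 43), 8.01 (rat 53) and 9.92 (rat 55) at 5-8d, and ran from 9.92 to 11.11 (median 10.97) at 9-14d. Neither later group overlapped the early one. The differences were 3.11 (SE 0.40) and 4.79 (SE 0.35). Dclk1 was also the member whose last step was largest, with 9-14d above 5-8d by 1.54 (SE 0.50) in unloaded and 1.68 (SE 0.45) in loaded legs, although the groups overlapped in both: rat 55 at 10.21 lay above rat 59 at 9.15 in unloaded legs, and rat 43 at 10.57 above rats 45 (10.38) and 59 (9.92) in loaded legs.

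Map1b and Tppp3 went the other way, and late. Map1b ran from 9.38 to 11.19 (median 10.23) in unloaded legs of 6h-4d. It was 10.78, 9.15, 10.48 and 10.90 in rats 41, 43, 53 and 55, and ran from 8.52 to 10.37 (median 9.11) at 9-14d. The groups overlapped widely: the 9-14d mean was 0.89 below the early one (difference -0.89, SE 0.31), and the 5-8d mean differed by 0.13 (SE 0.36). In loaded legs the values ran from 9.50 to 10.97 (median 10.35), were 11.11, 9.28, 10.15 and 10.05, and ran from 9.04 to 10 (median 9.39), a difference of -0.83 (SE 0.23) at 9-14d.

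Tppp3 in unloaded legs ran from 9.68 to 11.36 (median 10.49) at 6h-4d and was 10.21, 10.31, 10.62 and 10.69 in rats 41, 43, 53 and 55. At 9-14d it ran from 8.04 to 10.15 (median 9.15), below every unloaded leg of 5-8d. It was the only member whose last 2 unloaded windows did not overlap, as in 0.764% of genes for a lower value, and its differences were -1.41 (SE 0.27) from 6h-4d and -1.32 (SE 0.36) from 5-8d. In loaded legs it ran from 9.59 to 11.44 (median 10.82), was 10.63, 10.41, 11 and 10.43, and ran from 9.59 to 10.61 (median 10.10). There all 3 windows overlapped and the 9-14d mean was -0.50 (SE 0.23) from the early one.

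**Figure D2:**
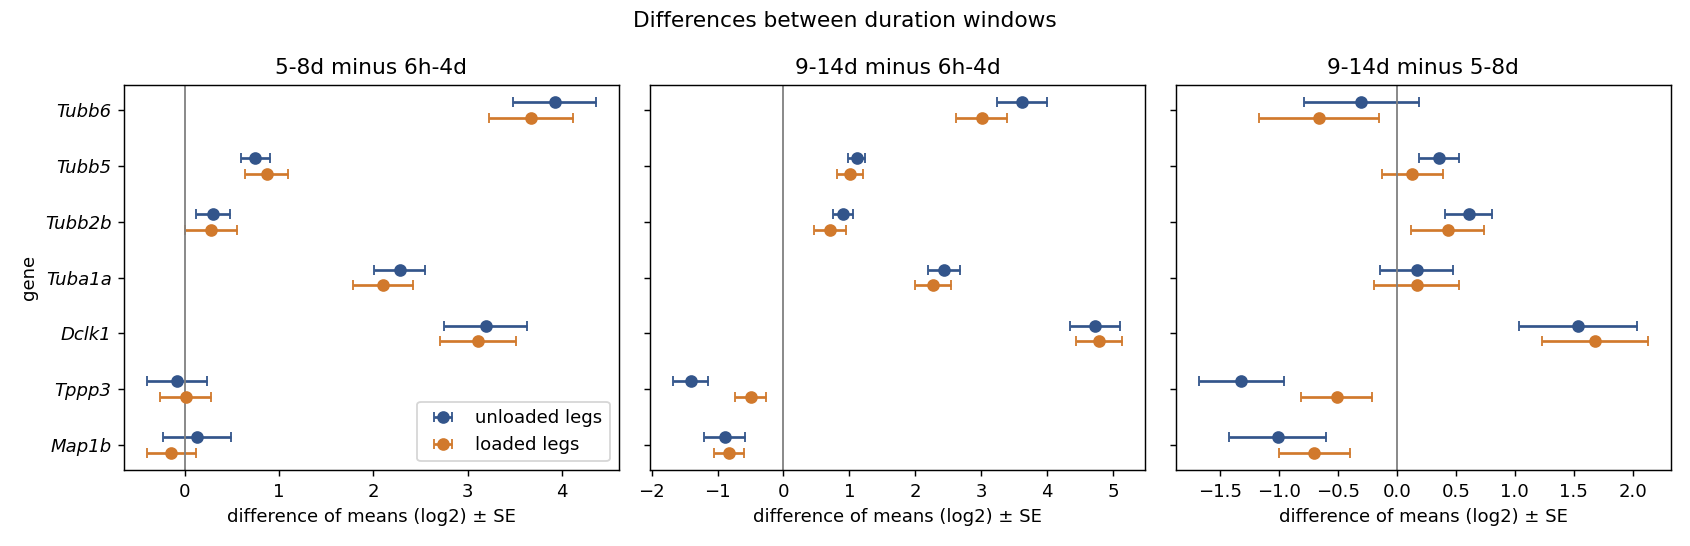
Difference of window means (horizontal axis, log2) with its SE for each gene (vertical axis), unloaded legs in blue and loaded legs in orange, 1 panel per pair of windows. Tubb6 and Tuba1a differ from the first window by about as much at 5-8d as at 9-14d, Dclk1 differs further at 9-14d, and Tppp3 differs by -1.41 in unloaded but -0.50 in loaded legs.

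The windows were not spread evenly over a numeric code in the labels, whose meaning is not given in the sources used here. Of its 5 values, numbered 1 to 5, codes 1, 2 and 4 hold only rats of 6h-4d, code 5 holds 2 rats of 5-8d and 2 of 9-14d, and code 3 holds 4, 2 and 4 rats of the 3 windows. Within code 3 alone, the unloaded difference of 9-14d from 6h-4d was 3.06 for Tubb6, 1.26 for Tubb5, 0.85 for Tubb2b, 2.21 for Tuba1a, 4.47 for Dclk1, -1.08 for Tppp3 and -1.43 for Map1b. The signs were those of all rats for all 7. Both Dclk1 at 5-8d (2.10 within code 3) and Tubb6 (3.01) were nearer the first window than over all rats, and the unloaded Dclk1 difference of 9-14d from 5-8d was 2.37 against 1.54. Rats 35 and 37 belong to code 3. The 2 rats of code 5 at 9-14d had the lowest unloaded Tppp3 (8.04 and 8.47) and the highest unloaded Map1b values (10.01 and 10.37).

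The question of passive loading was addressed by setting the 2 legs of each rat against each other. Of the 7 members, 1 passed the test at 9-14d, Tppp3, where 0.269% of all genes did (25 genes, and 6 to 92 with single rats left out, without rats 49 and 47). None passed at 6h-4d or at 5-8d, where no gene of the 9289 passed (0%), nor over all 23 rats, where 2.90% of genes passed. The test was limma with the rat as a block, two-sided, with Benjamini-Hochberg adjustment over the 9289 genes and a threshold of 0.05. At an unadjusted p under 0.05, Tppp3 was the only member over all 23 rats (p = 0.00195) and at 9-14d (p = 1.58e-05), and no member reached it at 6h-4d or 5-8d.

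At 9-14d the unloaded and loaded legs had Tppp3 at 10.15 and 9.87 in rat 45, 9.84 and 10.42 in rat 47, 8.80 and 10.13 in rat 49, and 9.50 and 10.61 in rat 51. In rats 57 and 59 they were 8.04 and 9.59, and 8.47 and 10.06. The loaded leg was higher in 5 of 6 rats, by 0.57 to 1.59, and lower in rat 45, by a difference of -0.28. The groups of 6 legs overlapped. Both legs had lower means at 9-14d than at 6h-4d, the unloaded by more (-1.41 against -0.50). Tppp3 was higher in the loaded than in the unloaded leg by 0.98 (SE 0.18, 95% interval 0.60 to 1.35, 1.97-fold, limma adjusted p = 0.0223). This SE and interval use the spread shared by the windows and are narrower than these 6 rats alone would give. The SD of the leg difference was 0.72 at 9-14d and 0.38 at 6h-4d. The call was lost when the rat was not blocked (adjusted p = 0.733), when only the 6 rats of the window were fitted (0.249), within label code 3 (difference 0.69, adjusted p = 0.357), and without any one of rats 49 (0.158), 51 (0.0604), 57 (0.0682) or 59 (0.0617).

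At 6h-4d the leg difference of Tppp3 ran from -0.70 to 0.68 (median 0.15), with a fitted mean of 0.07 (95% interval -0.19 to 0.33, limma adjusted p = 0.87). At 5-8d it was 0.42, 0.10, 0.37 and -0.25 in rats 41, 43, 53 and 55, with a mean of 0.16 (interval -0.30 to 0.62, adjusted p = 0.975). Over all 23 rats Tppp3 was higher in 17 loaded legs, by 0.32 on average (SE 0.09, adjusted p = 0.0565). The loading difference at 9-14d exceeded that at 6h-4d by 0.91 (SE 0.22, interval 0.45 to 1.36), which did not pass over all genes (adjusted p = 0.271, 0% of genes called) except when rat 45 was left out.

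Since Tppp3 is known from the tendon sheath, fibroblast and tendon markers were read beside it. All 9 listed fibroblast genes were measured. Between legs at 9-14d 1 passed (11.1%, against 0.269% of all genes), Pi16, a marker of adventitial fibroblasts. Pi16 was higher in loaded legs by 1.07 (SE 0.20, limma adjusted p = 0.0258), and the list's median difference was 0.25. Over all 23 rats 2 of the list passed, higher in loaded legs (22.2%, against 2.90% of all genes). The list was chosen with earlier results of these data known, and Pi16 was named after its values were seen. Nothing is read from these shares. The list's mean level ran from 8.13 to 9.46 in unloaded and 8.23 to 9.90 in loaded legs of 9-14d. Of the 4 tendon genes measured none passed between the legs, with a median difference of -0.24. Their part in the Tppp3 difference was not tested.

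**Figure D3:**
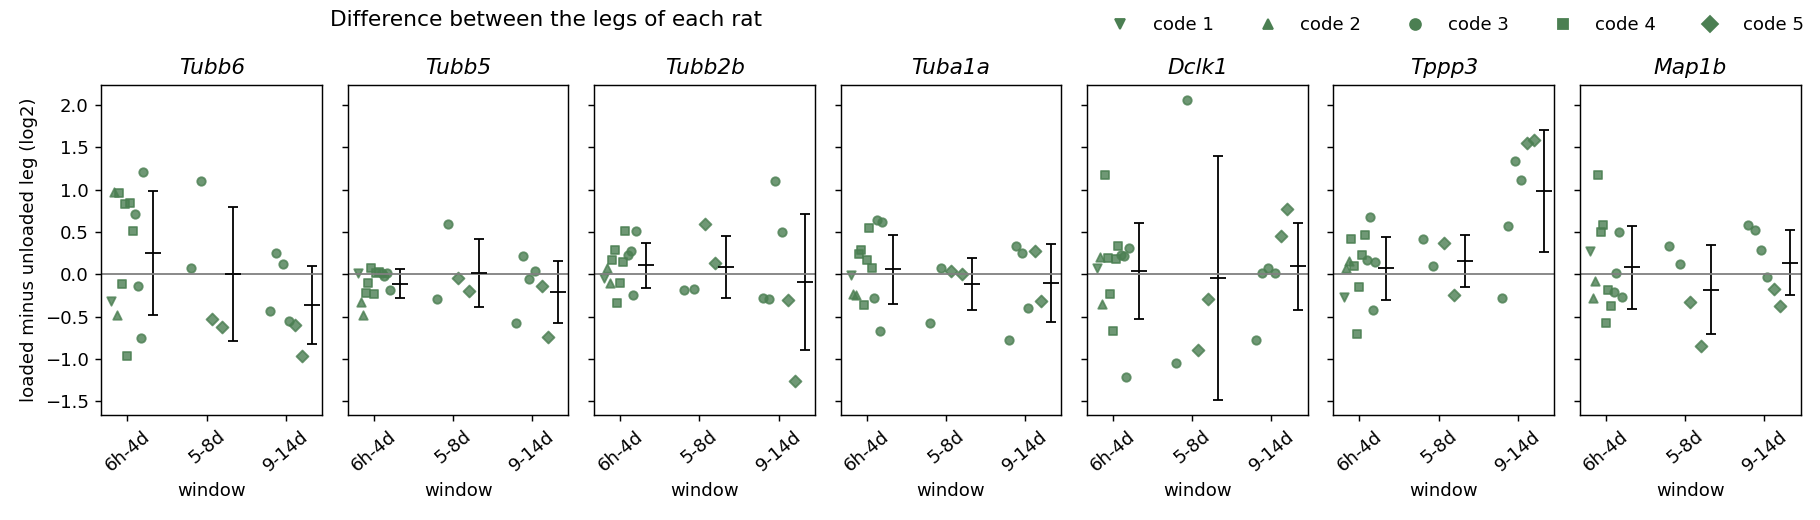
Loaded minus unloaded leg of each rat (vertical axis, log2) by window (horizontal axis) for the 7 genes, with 1 point per rat, shapes for the 5 label codes and bars for mean ± SD. For Tppp3 at 9-14d 5 of 6 rats lie above 0, up to 1.59, and 1 lies below at -0.28. The points of the other 6 genes lie on both sides of 0 in every window, with 5 of 6 above 0 for Dclk1 at 9-14d.

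For the 4 tubulins the leg differences were bounded as follows. Tubb6 over all 23 rats differed by 0.05 (95% interval -0.22 to 0.32), with 11 loaded legs higher and 12 lower. By window it was 0.25 (interval -0.11 to 0.61), 0.01 (-0.65 to 0.66) and -0.36 (-0.90 to 0.17). Single rats ranged from -0.96 (rat 23) to 1.21 (rat 37), so the spread between rats was far wider than the mean.

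Tubb5 had the narrowest bound, -0.11 over all rats (interval -0.23 to 0.00, adjusted p = 0.278), with 14 of 23 loaded legs lower. Its 9-14d difference was -0.21 (interval -0.44 to 0.02, adjusted p = 0.427). Tuba1a differed by -0.01 over all rats (interval -0.18 to 0.15), and Tubb2b by 0.05 (-0.14 to 0.24). At 9-14d Tubb2b ranged from -1.26 in rat 59 to 1.10 in rat 49.

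For Dclk1 the difference over all rats was 0.04 (interval -0.26 to 0.34), with 15 of 23 loaded legs higher. At 5-8d its 4 rats gave -1.05, 2.06, -0.89 and -0.29 (rats 41, 43, 53 and 55), with an SD of 1.44 against 0.72 over all 23 rats. The interval ran from -0.76 to 0.67, which covers differences in both directions. That interval uses the spread shared by the windows and is narrower than these 4 rats alone would give. Map1b differed by 0.05 over all rats (interval -0.14 to 0.24), with 11 loaded legs higher and 12 lower. Of the members' tests of whether the loading difference changed between windows, none passed.

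The wider microtubule system was read from 6 lists that hold 189 other genes, of which 125 were measured above the filter. In unloaded legs 54 rose and 15 fell from 6h-4d to 9-14d (55.2% called, against 45.6% of all genes), with a median difference of 0.23 against 0.07 over all genes. From 6h-4d to 5-8d 57 rose and 9 fell (52.8%, against 35.9%), and from 5-8d to 9-14d none passed, where 0.226% of genes did. Loaded legs gave 57 up and 15 down at 9-14d (57.6%, against 44.2%), 54 up and 12 down at 5-8d (52.8%, against 39.0%), and again none between the last 2 windows (0.226% of genes). These last shares rest on 21 genes in each leg. With single rats left out the count over all genes ran from 0 (without rat 41) to 544 (without rat 43) in unloaded legs, and from 2 (without rat 41) to 143 (without rat 45) in loaded legs. With the label code as a block, the calls of 9-14d against 6h-4d went from 69 to 41 in unloaded and from 72 to 35 in loaded legs. Those of 5-8d went from 66 to 11 and from 66 to 23. Counts over all genes with this block are not given here, so the drop is not read as particular to these lists.

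Of the 11 other tubulins measured, 7 rose and none fell in unloaded legs of 9-14d (63.6%, against 45.6% of all genes), and 9 rose at 5-8d (81.8%, against 35.9%). In loaded legs 4 rose at 9-14d (36.4%, against 44.2% of all genes) and 7 at 5-8d (63.6%, against 39.0%). Tuba1b, a widely expressed α-tubulin, rose by 2.19 (SE 0.30, limma adjusted p = 4.27e-06), from a mean of 8.87 ± 0.43 (SD, n = 13) to 11.07 ± 0.66 (n = 6), close in size to Tuba1a. Tubb2a rose by 1.05 (SE 0.12, adjusted p = 2.34e-07). The remaining called tubulins rose by 0.25 to 0.70, among them γ-tubulin, Tubg1, by 0.36 (SE 0.14). In loaded legs Tuba1b rose by 1.78 (SE 0.38) and Tubb2a by 0.97 (SE 0.18).

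Tubulin folding cofactors and modifying enzymes had the highest share called of the 6 lists at 9-14d. Loaded legs had 16 up and 2 down of 20 (90.0%, against 44.2% of all genes, median 0.36). Unloaded legs had 14 up and 1 down (75%, against 45.6% of all genes, median 0.46). Vash2, a carboxypeptidase that removes the last tyrosine of α-tubulin, rose by 1.92 (SE 0.39). Atat1, the acetyltransferase of α-tubulin, rose by 1.44 (SE 0.22). Agtpbp1, which trims glutamate chains from tubulin, fell by 1.11 (SE 0.13), from 10.39 to 9.28. With the label code as a block the Vash2 difference was 0.82 and no longer passed (adjusted p = 0.191).

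Of 20 other structural associated proteins, 8 rose and 3 fell in unloaded legs of 9-14d (55%, against 45.6% of all genes, median 0.30). Map1a, the relative of Map1b, rose by 1.42 (SE 0.29) from a mean of 8.36, whereas Map1b itself was 0.89 lower (difference -0.89). Map7, which recruits kinesin-1, rose by 0.84 (SE 0.25). Mtus1 fell by 1.01 (SE 0.22) and Mid1ip1, a partner of Mid1, by 0.57 (SE 0.22). None of these 4 passed with the label code as a block, with differences of 0.96, 0.94, -0.46 and -0.23, and the Mid1ip1 call was also lost without any one of 7 of the 23 rats.

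Plus-end, severing and depolymerising factors gave 8 up and 3 down of 20 in unloaded legs of 9-14d (55%, against 45.6% of all genes, median 0.18). Katnal1, a severing subunit of the katanin family, rose by 0.82 (SE 0.12) and Clasp1, which stabilises plus ends, by 0.78 (SE 0.11). Stmn3, a stathmin that sequesters tubulin, fell by 0.47 (SE 0.15), though its 9-14d mean of 5.65 lay in the background range, and Clip4, a protein of the CLIP family, fell by 0.47 (SE 0.19). The Clip4 call was lost with the label code as a block (difference -0.09) and without any one of 15 of the 23 rats. Within label code 3, a fit with fewer samples, Katnal1 (0.43, limma adjusted p = 0.15), Stmn3 (-0.75, 0.0724) and Clip4 (-0.19, 0.672) did not pass.

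Genes of nucleation and of anchoring to the nuclear envelope were called least of the 6 lists at 9-14d, 3 up and 2 down of 18 in unloaded legs (27.8%, against 45.6% of all genes, median 0.04) and 5 up and 1 down in loaded legs (33.3%, against 44.2%). At 5-8d they were again called least in unloaded legs, with 4 up and 2 down (33.3%, against 35.9% of all genes). They were not in loaded legs of 5-8d, where 7 rose and 2 fell (50%, against 39.0%). Akap6, a scaffold at the nuclear envelope of muscle, rose by 1.20 (SE 0.13). Haus7, an augmin subunit, rose by 0.43 (SE 0.09) from a mean of 5.68, in the background range. Mzt2b, a small γ-tubulin complex protein, fell by 0.45 (SE 0.13), and Syne3, nesprin-3, by 0.24 (SE 0.09). Haus7 and Mzt2b did not pass with the label code as a block, and the Syne3 call was lost without any one of 8 of the 23 rats. Within label code 3, a fit with fewer samples, Haus7 (0.32), Mzt2b (-0.20) and Syne3 (-0.38) did not pass.

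The 36 motor genes measured split in unloaded legs of 9-14d, 14 up and 6 down (55.6%, against 45.6% of all genes, median 0.17). Among dynein light chains, Dynll1 rose by 1.82 (SE 0.21, adjusted p = 4.46e-07) from 10.81 to 12.63, and its close relative Dynll2 fell by 0.94 (SE 0.10, adjusted p = 2.25e-07) from 10.49 to 9.55. Among kinesins Kif3c rose by 1.44 (SE 0.16) and Kif5a, a kinesin-1 heavy chain, fell by 0.70 (SE 0.13). Loaded legs gave 1.94 for Dynll1, -0.95 for Dynll2, 1.41 for Kif3c and -0.62 for Kif5a. Within label code 3, a fit with fewer samples, Kif5a did not pass in unloaded legs (difference -0.79, limma adjusted p = 0.0638).

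**Figure D4:**
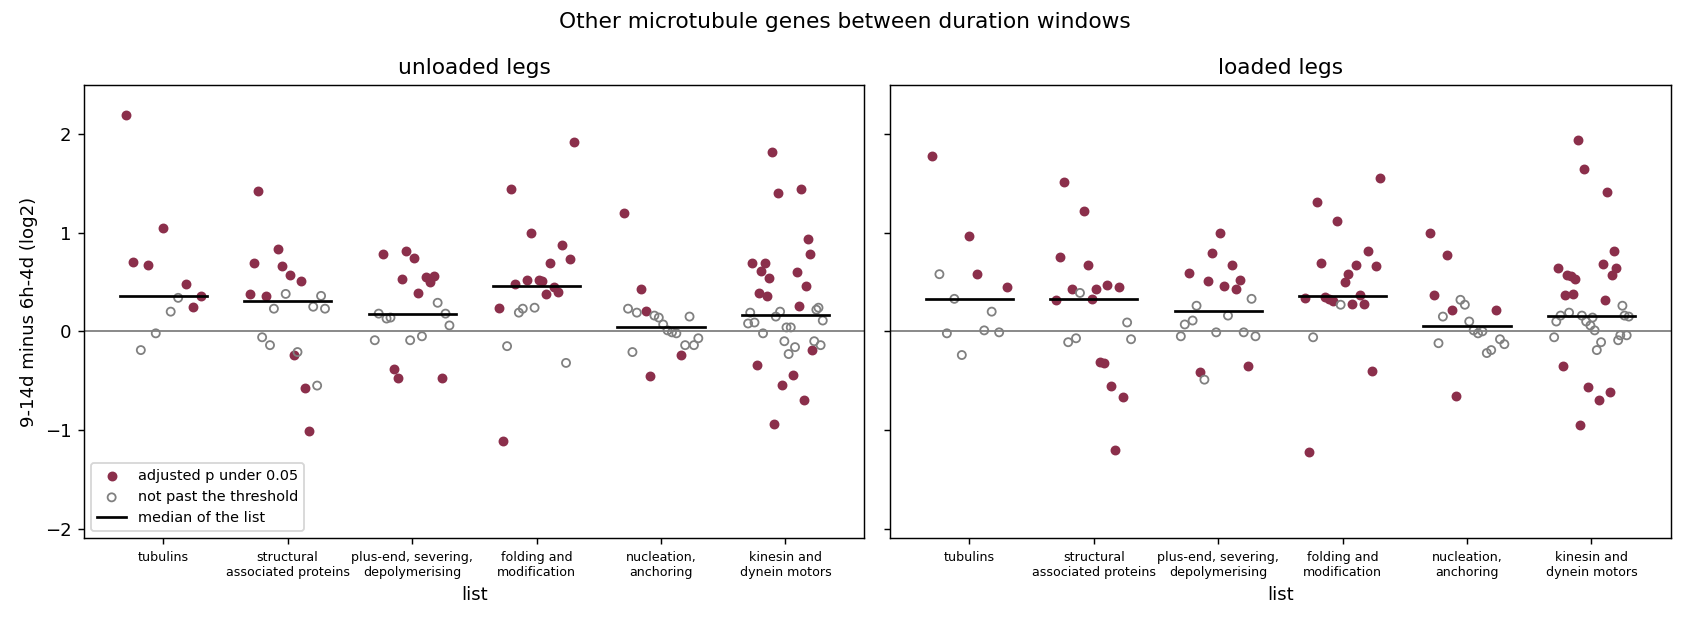
Difference of 9-14d from 6h-4d (vertical axis, log2) for each of the 125 other microtubule genes by list (horizontal axis), unloaded legs left and loaded legs right, filled where the limma adjusted p was under 0.05, with a line at each list's median. Tubulins and folding or modifying enzymes lie mostly above 0, with medians of 0.36 and 0.46 in unloaded legs, and nucleation genes lie around 0.04.

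Between legs, 6 of the 125 other microtubule genes passed over all 23 rats, against 2.90% of all genes. Of these 6, 2 were higher and 4 lower in loaded legs. None of the 125 passed in any single window, where 0% of all genes passed at 6h-4d and at 5-8d and 0.269% at 9-14d. With so few calls over all genes, the absence by window is not read as particular to these lists. Haus7 was higher by 0.35 (SE 0.08, limma adjusted p = 0.0174, higher in 19 of 23 rats), from a level in the background range. Tbcb, a tubulin folding cofactor, was higher by 0.16 (SE 0.04, adjusted p = 0.0469, 20 of 23). Nedd1, which targets the γ-tubulin complex, was lower (difference -0.23, SE 0.04, adjusted p = 0.0078, lower in 21 of 23).

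Also lower in loaded legs were Katnal1 (difference -0.19, SE 0.04, limma adjusted p = 0.0174, lower in 20 of 23 rats), Ttll12, of the tubulin ligase family (-0.16, adjusted p = 0.0375, 20 of 23), and Ckap5, a microtubule polymerase (-0.13, adjusted p = 0.0410, 17 of 23). Katnal1 rose from 6h-4d to 9-14d in both legs. All 6 calls were lost without the rat as a block, with limma adjusted p from 0.0533 (Haus7) to 0.846 (Tbcb), and within label code 3. Those of Tbcb, Ckap5 and Ttll12 were lost without any one of 18, 16 and 13 of the 23 rats.

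The genes nearest in pattern to each member were taken as the 3 with the smallest root mean square difference of mean-centred log2 values over the 46 arrays. For Tubb6 they were Akip1 (0.67), Ppp1r14c (0.73), an inhibitor of protein phosphatase, and Gpnmb (0.83), a glycoprotein of macrophages and other cells. For Dclk1 they were Cst7 (0.79), Ncam1 (0.93), the neural cell adhesion molecule that denervated fibres re-express, and Klk1 (0.99). Tuba1a was nearest to Rpl3, Me2 and Rab31, each at 0.53. The SD of Tubb6, Dclk1 and Tuba1a over the arrays was 1.94, 2.26 and 1.26, so these differences are small against their own range.

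Tubb5 (SD 0.59) was nearest to Alg8 (0.25), Arhgef2 (0.26) and Renbp (0.27). Tubb2b (SD 0.53) was nearest to Septin9, Ccnd1 and Nipsnap3b, each at 0.29. For Map1b (SD 0.68) they were Eif4ebp1 (0.39), Dbndd2 (0.41) and Zfyve9 (0.44). Relative to its own SD, here 0.71, Tppp3 had the least close neighbours of the members, Plaat1 (0.52), Arhgap44 (0.55) and Tab2 (0.56). The differences themselves were larger for the neighbours of Tubb6 and Dclk1.

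Markers of other cell types were read in the same comparison, unloaded legs of 9-14d against 6h-4d, in which 45.6% of all genes were called. Of 6 measured markers of satellite cells and myoblasts, 4 rose and 1 fell (83.3% called), with a list median difference of 1.44. Among those that rose, Mymk, the fusion protein myomaker, differed by 2.86 (SE 0.28) and Myf5 by 2.21 (SE 0.17), above that median. Of 11 macrophage markers 6 rose, with Cd68 up by 1.41 (SE 0.40) and Adgre1 by 1.34 (SE 0.27), a share of 54.5%, and at 5-8d none rose and 2 fell (18.2%, against 35.9% of all genes). Of 9 fibroblast markers 8 fell at 5-8d and 2 at 9-14d. Of 6 Schwann cell markers 1 rose and none fell at 9-14d, and 6 of 9 muscle fibre markers fell, with a list median difference of -0.32. Of 3 endothelial markers 1 fell, of 5 of smooth muscle and pericytes 2 fell, and of 4 of tendon 1 rose, with a list median difference of -0.87.

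In unloaded legs the mean log2 level of the satellite cell and myoblast list ran from 6.86 to 7.51 at 6h-4d. It ran from 7.55 to 8.12 at 5-8d and from 7.88 to 9.02 at 9-14d. No later group overlapped the first, though only narrowly at 5-8d. Of all genes taken singly, 5.87% at 5-8d and 7.35% at 9-14d were higher without overlap. These shares are for single genes and not for list means, so they do not say how rare the list's pattern is. The macrophage list ran from 7.25 to 8.28, 6.81 to 7.85 and 7.59 to 9.86 in the same windows, and the Schwann cell list from 6.69 to 7.89, 6.50 to 6.99 and 6.65 to 7.49. Of the 9 markers of dividing cells only 1 passed the filter on low values, Bub1. It did not pass the test in unloaded legs of 9-14d (difference -0.33 from 6h-4d), and it was called lower in unloaded legs of 5-8d (-0.58) and in loaded legs of 9-14d (-0.63) and 5-8d (-0.53). Its group medians lay between 5.35 and 5.9, all under 6.07, so these values may hold background only. The part of these cell types in the members' levels was not tested.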

How the data were processed

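The deposited table holds 1 log2 value per probe set and array (26208 probe sets, 46 arrays), normalised by the authors with RMA, per the submitters' processing notes. The annotation names 1 symbol for 15088 probe sets, several for 323 and none for 10797. Probe sets above their array's median on at least 4 arrays were kept, and the one with the highest mean over the arrays stood for a gene (9289 genes). No background call comes with the values, and the number of arrays limits the precision.

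Tests used limma 3.58.1 (lmFit, eBayes) in R 4.3.3, checked on simulated data, two-sided, with Benjamini-Hochberg adjustment over 9289 genes. Legs were compared over 46 arrays with the rat as a block, windows over the 23 arrays of a leg. The rat is inferred from consecutive leg numbers sharing window and label code. The deviations of its 2 legs from their group means correlated above 0.1 in 21 of 23 rats (median 0.60), but not in rats 17 (0.08) and 27 (-0.35). P-values of the leg comparison rest on the spread of the leg differences between rats, shared by the windows. Those of the window comparison rest on the spread between rats within a window, shared by the windows of a leg.

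The members, gene lists and marker lists were chosen with earlier results of these data known. Genes named from a list are the 2 largest called rises and falls in unloaded legs of 9-14d against 6h-4d, and up to 5 called between legs. Ckap5, Tubg1, Pi16, Cd68, Adgre1, Mymk, Myf5 and Bub1 were added after their values were seen. Alternatives changed the filter, normalisation, array weights, block, label code and rats kept.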

Additional observations from a re-analysis of the deposited data

Results flagged for a closer look

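Among 42 groups of 4 or 6 values (levels by leg and window, and leg differences by window, for the 7 genes), 4 held a rat far from the others by Dixon's test; chance alone flags about 1 in 20 groups. Tubb6 in the unloaded leg of rat 43 was the lowest of 5-8d at 10.55, with the next at 11.81. Tubb5 in the loaded leg of the same rat was the highest of 5-8d at 11.37, with the next at 10.41. The leg difference of Tuba1a at 5-8d was lowest in rat 41 at -0.57, with the next at 0.00. Dclk1 in the unloaded leg of rat 59 was the lowest of 9-14d at 9.15, with the next at 10.66.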

How the results depend on the processing

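The alternative of each member's other probe sets could not be run, since each has 1. The members' differences of 9-14d from 6h-4d kept their sign in both legs under every alternative tried. The causes of the changes below were not tested. Counts over all genes under the alternatives of this paragraph are not given here, so no change is read as particular to microtubule genes. With array quality weights 1 member (Tppp3) passed between legs over all 23 rats, as with cyclic loess (1), and 10 other microtubule genes did against 6; by window 1, 16 and 1 did against 0, and 26 (unloaded) and 4 (loaded) did between 9-14d and 5-8d against 0. Without a filter 3 passed over all rats, and without rats 35 and 37 3 did, with 1 between the last 2 windows in loaded legs. Without the replicate block 0 of the other genes passed between legs and 0 members at 9-14d, as when only the rats of that window were fitted (0). Within label code 3 the counts were 0 and 0 between legs, 18 against 69 and 1 against 66 in unloaded legs (9-14d and 5-8d against 6h-4d), and 8 against 72 and 0 against 66 in loaded legs. There were fewer samples in that fit. With the label code as a block they were 41, 11, 35 and 23, with 1 between the last 2 windows in loaded legs.

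Leaving out each rat in turn gave 0 to 1 members and 3 to 8 other genes between legs over all rats. Of all genes 103 to 375 passed there. At 6h-4d 0 to 1 other genes passed (0 to 14 of all genes). At 9-14d 0 to 1 members and 0 to 1 other genes did (6 to 92 of all genes). For the change of the loading difference from 6h-4d to 9-14d, 0 to 1 members passed (1 without rat 45) and 0 to 4 of all genes. Between the last 2 windows 0 to 6 (unloaded) and 0 to 4 (loaded) other genes passed, against 0 to 544 and 2 to 143 of all genes. No change is read as particular to microtubule genes. The Tppp3 difference at 9-14d ranged from 0.86 to 1.23 (limma adjusted p from 6.50e-04 to 0.158).

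Leg differences near 0 changed sign, none of them past the threshold. With array weights Tubb6 was -0.01, Dclk1 -0.07 and Map1b -0.01 over all rats, Tuba1a 0.00 at 6h-4d, Tubb6 -0.39 and Tubb5 -0.04 at 5-8d; the change from 6h-4d was -0.02 for Dclk1 at 9-14d and 0.28 for Tubb2b at 5-8d. Within label code 3 Dclk1 was -0.01 over all rats, -0.11, 0.50 and -0.17 by window, and its changes from 6h-4d were 0.61 at 5-8d and -0.06 at 9-14d. There Tubb2b was -0.18 at 5-8d and 0.26 at 9-14d (change 0.07), Map1b 0.23 at 5-8d (change 0.22), and the change of Tubb6 to 5-8d was 0.33. Without rats 17 and 27 Tubb6 was -0.03 and Dclk1 -0.02 over all rats, Dclk1 was -0.08 at 6h-4d and its change to 5-8d 0.03. Without rats 35 and 37 its change to 9-14d was -0.03.

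With single rats left out the ranges that crossed 0 over all rats were 0.00 to 0.10 for Tubb6, -0.04 to 0.02 for Tuba1a and -0.05 to 0.09 for Dclk1. At 6h-4d they were -0.06 to 0.14 for Dclk1 and -0.01 to 0.14 for Map1b. At 5-8d they were -0.36 to 0.21 for Tubb6, -0.18 to 0.12 for Tubb5, -0.08 to 0.18 for Tubb2b, -0.18 to 0.04 for Tuba1a, -0.75 to 0.29 for Dclk1 and -0.35 to 0.04 for Map1b. At 9-14d they were -0.33 to 0.14 for Tubb2b, -0.20 to 0.03 for Tuba1a and -0.04 to 0.26 for Dclk1. The change from 6h-4d to 9-14d ranged from -0.19 to 0.01 for Tubb5, -0.43 to 0.04 for Tubb2b, -0.08 to 0.23 for Dclk1 and -0.04 to 0.16 for Map1b. That to 5-8d ranged from -0.07 to 0.23 for Tubb5, -0.18 to 0.08 for Tubb2b and -0.78 to 0.25 for Dclk1.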
